A study of Homo sapiens with 4 samples.

Results

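The genes described here are 8 enzymes of the pentose phosphate pathway and of cytosolic NADPH production: PGD, PGLS, RPIA, RPE, TKT, TALDO1, ME1 and IDH1. They were chosen by name, and each was looked up by its symbol in the table of RNA levels and in both lists of m6A peaks. All 8 were among the 28283 genes of the RNA table, 7 had a peak in both lists, and PGLS had a peak in 1 list. The RNA came from A549, a human lung adenocarcinoma line grown in medium with serum. Cells infected with lentivirus were selected with puromycin and carried either the PLKO control vector (shNC) or, in the knockdown (shY2-2), an shRNA that targets YTHDF2, and the comparison rests on this single shRNA. Poly(A) RNA of each condition was fragmented and was split into 1 input library, which gave the RNA levels, and 1 IP library of fragments bound by an antibody to m6A, so that 4 libraries were made.

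The oxidative branch of the pathway takes glucose 6-phosphate to ribulose 5-phosphate with the production of NADPH, and PGLS and PGD are 2 of its enzymes. The non-oxidative branch, with RPIA, RPE, TKT and TALDO1, interconverts pentose phosphates and sends surplus carbon back to glycolysis. ME1 and IDH1 make NADPH in the cytosol from malate and isocitrate. A549 cells are known for active NRF2, a transcription factor that drives many of these genes. YTHDF2 is an m6A reader that brings bound mRNAs to decay, and an earlier study in lung cancer cells named PGD mRNA as a YTHDF2 target at the level of translation, which is why PGD is set beside its pathway here.

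m6A is found mostly within a short sequence around a GAC, of which GGAC is a common form, so the GGAC sites inside the peaks of both lists show where the members could carry the mark. The letters GGAC were searched on the transcript strand only. GGACT is a longer form of the same motif, and every GGACT is also counted as GGAC. Of all peaks, 60.9% of those called in shNC and 60.6% of those called in shY2-2 held GGAC. Among the members' peaks the counts were 14 of 19 in shNC and 16 of 18 in shY2-2. A match is a description of the letters and does not show that the site is methylated.

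The 7 windows below are 1 for each of the 6 members whose peaks overlapped between the lists, and 1 further PGD site that only the shNC peak covered. Each holds 25 bases of the GRCh38 reference, 5′ to 3′ on the transcript strand, written with T, and the capitals mark GGAC. Where a member had several shared sites, the one shown is a GGACT, and for IDH1 it is the one in the 3′ UTR.
PGD 3′ UTR, chr1:10419936-10419960, plus strand, in both peaks: ttgcctcttgGGACtgaccaggagc
PGD 3′ UTR, chr1:10419779-10419803, plus strand, in the shNC peak only: ccacagaccaGGACattccatgtgc
TKT 3′ UTR, chr3:53225055-53225079, minus strand, in both peaks: atggggcctgGGACtccatgtgaca
TALDO1 3′ UTR, chr11:764851-764875, plus strand, in both peaks: ccctgaggctGGACtccagatctgc
RPIA coding sequence, chr2:88738002-88738026, plus strand, in both peaks: attttatcttGGACtggaagtttga
RPE 3′ UTR, chr2:210020517-210020541, plus strand, in both peaks: ctttctagctGGACctttaacaaat
IDH1 3′ UTR, chr2:208236336-208236360, minus strand, in both peaks: aatcttttttGGACttctgctggcc
The PGD site shared by both peaks lies 199 nt after the stop codon, and it was the only GGAC of the 3′ UTR that both lists covered. The site covered in shNC alone lies 42 nt after the stop codon. RPE had 1 GGAC in a peak of either list, the one shown, and its next base is C.

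RNA levels are FPKM, fragments scaled to exon length and to the mapped fragments of the library, so levels of different genes are compared per length. The ratio of a gene is log2((FPKM shY2-2 + 1)/(FPKM shNC + 1)). Genes that reached an FPKM of 1 in either input library were kept, 12268 in all, and the 8 members were among them. With 1 library per condition there is no replicate spread and no test, and each difference describes these libraries. A call here means a ratio past 2-fold. Counts at 1.5-fold use the same ratio, with its pseudocount of 1. The median ratio of all genes kept was 0.00. In bulk RNA, fewer cells of a kind and less RNA per cell cannot be told apart.

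YTHDF2, the gene the shRNA was made against, had an FPKM of 3.56 in shNC and 1.02 in shY2-2, a log2 ratio of -1.18. Of 6 epithelial markers of the line, all 6 were lower in shY2-2, 4 of them by more than 1.5-fold, and their summed FPKM was 1597 in shNC and 1021 in shY2-2. Of the 12268 genes kept, 6102 were lower in shY2-2, and 8.92% were lower by more than 1.5-fold. KRT7, a keratin of simple epithelia, went from 649 to 399. Of 9 markers of immune, endothelial, mesenchymal and normal lung cell types, 7 were under an FPKM of 1 in both libraries. The summed FPKM of these 9 was 5.56 and 5.74, most of it ACTA2.

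PGD was the most abundant member and the one that differed most between the libraries, while 7 of the 8 members differed by less than 1.5-fold. No member was past 2-fold in either direction, where 0.986% of all genes kept were past it upward and 2.14% downward. At 1.5-fold, 1 member was lower and none was higher, against 8.92% of genes lower and 5.38% higher. The median log2 ratio of the members was 0.09, with 5 members higher and 3 lower in shY2-2, where IDH1 turned lower once the libraries were rescaled to the same FPKM sum.

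**Figure D1:**
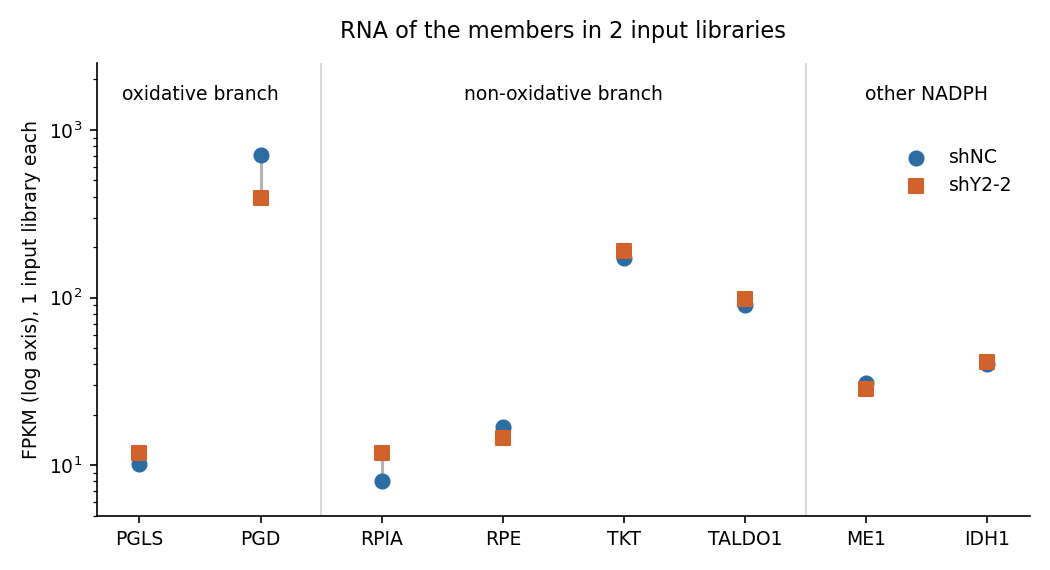
FPKM (log axis) of the 8 members in the shNC (circles) and shY2-2 (squares) input libraries, 1 library each, ordered by branch. PGD is at 712 in shNC and 393 in shY2-2, while TKT, TALDO1, ME1 and IDH1 nearly coincide between the libraries.

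PGD (ENSG00000142657, chromosome 1, plus strand, 10398592 to 10420144) encodes 6-phosphogluconate dehydrogenase, the enzyme of the last oxidative step. Its FPKM was 712 in shNC and 393 in shY2-2, a fold of 0.552. The log2 ratio was -0.86, at the 3.44 percentile of all genes kept. By level, PGD ranked 27 of the genes kept in shNC and 65 in shY2-2. Among the 94 genes whose mean FPKM was 300 or more, the middle 95% of ratios ran from -1.24 to 0.64 around a median of 0.16. Of those 94 genes, 8 were lower by more than 1.5-fold, and 4 had a lower ratio than PGD. PGD therefore stood in the lower tail among genes of like abundance as well as among all genes, without being the lowest.

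The genes most like PGD by distance in log2(FPKM + 1) over the 2 input libraries were KRT7 (distance 0.136), the mitochondrial transcript MT-ND4L (0.501) and KRT8 (0.530). KRT7 and KRT8 were among the epithelial markers that were lower in shY2-2, and the part of the markers' difference in the PGD result was not tested. Each of the 7 other members had a gene within 0.0297 of it on the same scale.

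**Figure D2:**
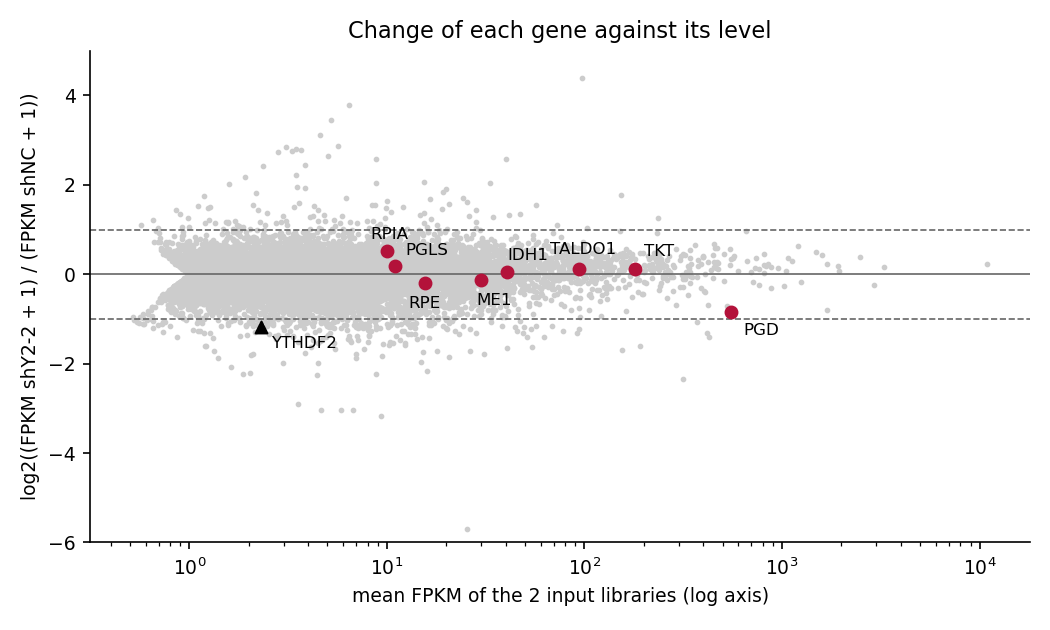
Log2 ratio against mean FPKM (log axis) for the 12268 genes kept (grey), with the 8 members as red circles and YTHDF2 as a black triangle. Dashed lines mark a 2-fold change. All members lie between the dashed lines, and PGD, at -0.86, is closest to the lower one.

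In the oxidative branch, PGLS and H6PD had ratios nearer to 0 than PGD. PGLS (ENSG00000130313, chromosome 19, plus strand, 17511629 to 17521288), the lactonase that makes the substrate of PGD, had an FPKM of 10.2 in shNC and 11.8 in shY2-2, a log2 ratio of 0.19. H6PD, an enzyme of the branch in the endoplasmic reticulum, had 4.71 and 5.28. The FPKM of PGD was 69.9 times that of PGLS in shNC and 33.4 times in shY2-2. PGLS was thus present at far lower RNA levels per length than PGD in both libraries.

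In the non-oxidative branch, 3 of the 4 members were higher in shY2-2 and none reached 1.5-fold. RPIA (ENSG00000153574, chromosome 2, plus strand, 88691644 to 88750935), which converts ribulose 5-phosphate to ribose 5-phosphate, had the highest ratio of the members, with an FPKM of 8.01 in shNC and 11.9 in shY2-2. Its log2 ratio of 0.52 was at the 92.5 percentile of genes kept, just inside 1.5-fold. RPE (ENSG00000197713, chromosome 2, plus strand, 210002565 to 210022259), the epimerase that makes xylulose 5-phosphate from the same substrate, had 16.8 in shNC and 14.5 in shY2-2, a log2 ratio of -0.20. The isomerase and the epimerase, which share a substrate, thus had ratios of opposite sign. RPEL1, a near copy of RPE, was listed at 0.022 and 0.018.

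TKT (ENSG00000163931, chromosome 3, minus strand, 53224707 to 53256052) is transketolase, which moves ketol groups between sugars, and TALDO1 (ENSG00000177156, chromosome 11, plus strand, 747329 to 765024) is transaldolase, its partner. TKT had an FPKM of 173 in shNC and 189 in shY2-2, with a log2 ratio of 0.13. TALDO1 had 90.2 and 98.4, with a log2 ratio of 0.12. Both ratios were near the median of 0.16 that genes with a mean FPKM of 100 to 300 had and of 0.12 for genes of 30 to 100. The FPKM of PGD was 4.12 times that of TKT in shNC and 2.08 times in shY2-2.

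ME1 (ENSG00000065833, chromosome 6, minus strand, 83210389 to 83431071), the cytosolic malic enzyme, had an FPKM of 31.1 in shNC and 28.5 in shY2-2, a log2 ratio of -0.12. IDH1 (ENSG00000138413, chromosome 2, minus strand, 208236227 to 208266074), the cytosolic NADP-dependent isocitrate dehydrogenase, had 40.02 and 41.4, a log2 ratio of 0.05. After that rescaling the log2 ratio of IDH1 was -0.02. The 7 other members kept their sign.

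Summed over the 8 members, FPKM was 1081 in shNC and 789 in shY2-2, or 0.476% and 0.331% of the FPKM of all genes. PGD gave 65.9% of that sum in shNC and 49.8% in shY2-2. Without PGD the sum was 369 in shNC and 395 in shY2-2, so the 7 other members together were not lower in shY2-2. The order of levels was PGD, TKT, TALDO1, IDH1, ME1 and RPE from the top in both libraries, and PGLS and RPIA changed places at the bottom. Without replicates, no neighbours in that order can be set apart by their spread, and PGLS and RPIA were at 11.8 and 11.9 in shY2-2. The highest member was 88.9 times the lowest in shNC and 33.4 times in shY2-2.

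The rest of the pathway was read from lists of related genes. Without the members these lists held 53 genes that passed the filter, of which 2 were past 2-fold higher and 1 past 2-fold lower, with a median log2 ratio of 0.06. At 1.5-fold, 5 were higher and 3 lower. Of all genes kept, 0.986% were past 2-fold higher and 2.14% lower, and at 1.5-fold the shares were 5.38% and 8.92%. Of the 27 genes that the deposited table assigns to the KEGG pentose phosphate pathway, 6 were members and 22 passed the filter. With the pseudocount of 1, none of the 22 was past 2-fold, 1, ALDOC, was higher and 1, PGD, was lower by more than 1.5-fold, and their median was 0.13.

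**Figure D3:**
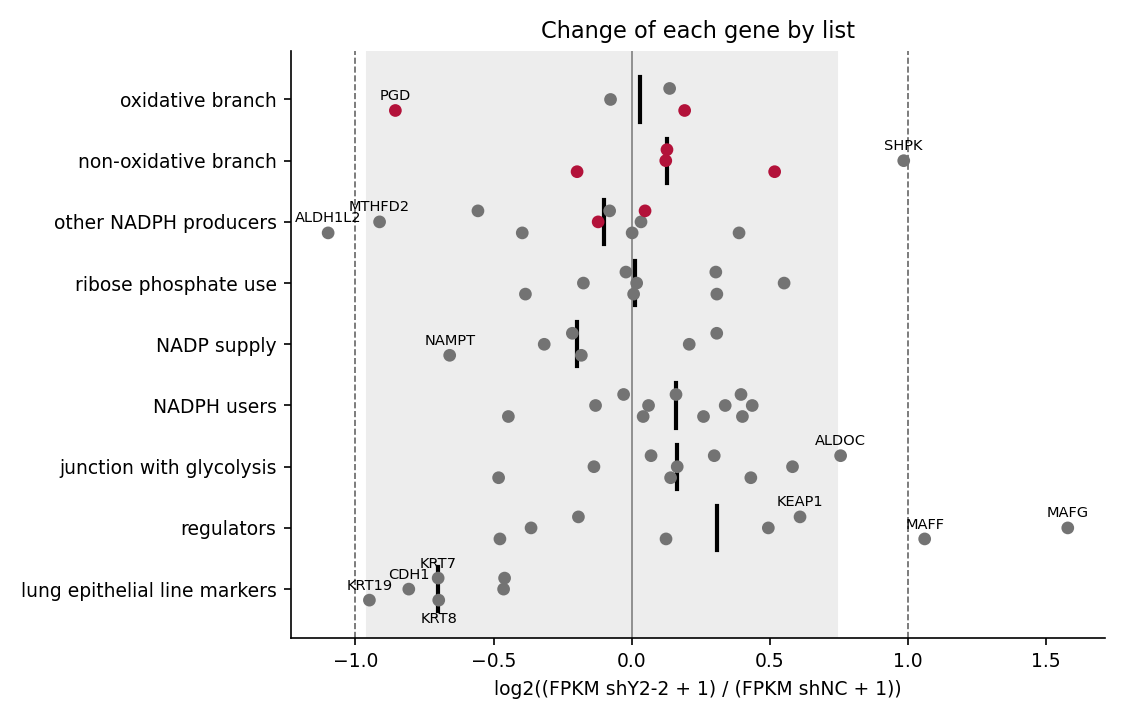
Log2 ratio of every gene kept in each list, with members in red, other genes in grey and the median as a black bar. The grey band holds the middle 95% of all genes kept (-0.96 to 0.74), dashed lines mark 2-fold, and genes past 1.5-fold are named. PGD is the only member past 1.5-fold, MAFG lies furthest to the right at 1.58, and all epithelial markers lie left of 0.

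The list named other NADPH producers held 8 genes kept beside ME1 and IDH1, all of them mitochondrial or folate enzymes. It was drawn broadly, and not every enzyme on it need make NADPH. With the pseudocount, 2 of the 8 were lower by more than 1.5-fold and none was higher, beside 8.92% and 5.38% of all genes kept. The median of the 8 was -0.24. NNT, at 2.77 in shNC and 1.57 in shY2-2, had a log2 ratio of -0.56 with the pseudocount and -0.83, past 1.5-fold, without one. MTHFD2, a mitochondrial folate dehydrogenase, went from 50.1 to 26.1, a log2 ratio of -0.91. ALDH1L2, a mitochondrial formyltetrahydrofolate dehydrogenase that makes NADPH, went from 2.502 to 0.635, a log2 ratio of -1.10 and the only one of the list past 2-fold. IDH2, the mitochondrial counterpart of IDH1, had 23.4 and 30.9, the highest ratio of the list at 0.39. In the non-oxidative list, SHPK, the kinase that makes sedoheptulose 7-phosphate, had 5.34 and 11.5. Its log2 ratio was 0.98 with the pseudocount, just inside 2-fold, and 1.11, past 2-fold, without one.

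Genes that use the pathway's products were mostly near the background. Of 8 genes of ribose phosphate use none was past 1.5-fold, and the highest was PRPS1, a phosphoribosyl pyrophosphate synthetase, at 43.4 and 64.1 (log2 ratio 0.55), and the lowest was DERA, deoxyribose phosphate aldolase, at -0.38. Of 11 NADPH users none was past 1.5-fold, and their median was 0.16. Among those users, NQO1, a quinone reductase and NRF2 target, was the highest at 381 and 515 (log2 ratio 0.44). Of 6 genes of NADP supply, NAMPT, the salvage enzyme for NAD, was the only one past 1.5-fold with the pseudocount. It had 40.9 in shNC and 25.5 in shY2-2. The PGD difference was therefore larger in size than that of any gene kept in these 3 lists.

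At the junction with glycolysis, 1 of 9 genes was past 1.5-fold. This was ALDOC, an aldolase, at 0.639 and 1.77, and the median of the list was 0.16. The log2 ratio of ALDOC was 0.76 with the pseudocount and 1.47, past 2-fold, without one. TPI1, triose phosphate isomerase, was just inside 1.5-fold at 365 and 547. Among 8 regulators the median was 0.31, and 3 were higher by more than 1.5-fold, beside 5.38% of all genes kept. MAFG, a small MAF protein that pairs with NRF2 on DNA, had 9.84 in shNC and 31.4 in shY2-2, a log2 ratio of 1.58. MAFF, of the same family, had 0.291 and 1.69, a ratio of 1.06 from a level under 1. KEAP1, which holds NRF2 for degradation, had 11.98 and 18.8, and NFE2L2, which encodes NRF2, had 7.41 and 10.8, inside 1.5-fold. The 3 regulators that were lower in shY2-2 were also inside 1.5-fold, with log2 ratios of -0.48 for SREBF1, -0.36 for BACH1 and -0.19 for TIGAR.

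The m6A peaks of the members are regions where the IP library was enriched over the input library of the same condition, as the authors called them. Fold enrichment is the linear ratio of IP over input that they deposited, with a p-value and an FDR for each peak. The members held 19 distinct peaks in shNC and 18 in shY2-2. Of these, 14 and 15 overlapped a peak of the other list, where 55.9% of all shNC peaks and 65.4% of all shY2-2 peaks did. By the authors' annotation 11 of those in shNC and 12 of those in shY2-2 lay in 3′ UTRs, where 59.1% and 59.5% of all peaks did. By overlap with the reference transcript the counts were 10 and 9, and 5 in each list came within 100 nt of a stop codon. The median fold enrichment of the members' peaks was 2.16 in shNC and 1.96 in shY2-2, beside 2.17 and 2.26 for all peaks of the lists.

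Of the 8 members, 7 had a peak in both lists, beside 72.7% of all genes kept. The lists hold peaks with a p-value of at most 0.049, and not all of these pass an FDR of 0.05. At an FDR of at most 0.05, 6 members had a peak in both lists, and the share of all genes at that cut was not computed. For 6 of 8 the peaks overlapped between the lists, beside 64.5% of all genes kept and 86.2% of genes that reached an FPKM of 10 in either library, as all 8 members did. A 3′ UTR peak in both lists was found for 6 of 8, beside 57.9% of genes kept. These shares are near those of other genes, and they say nothing particular about the members.

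**Figure D4:**
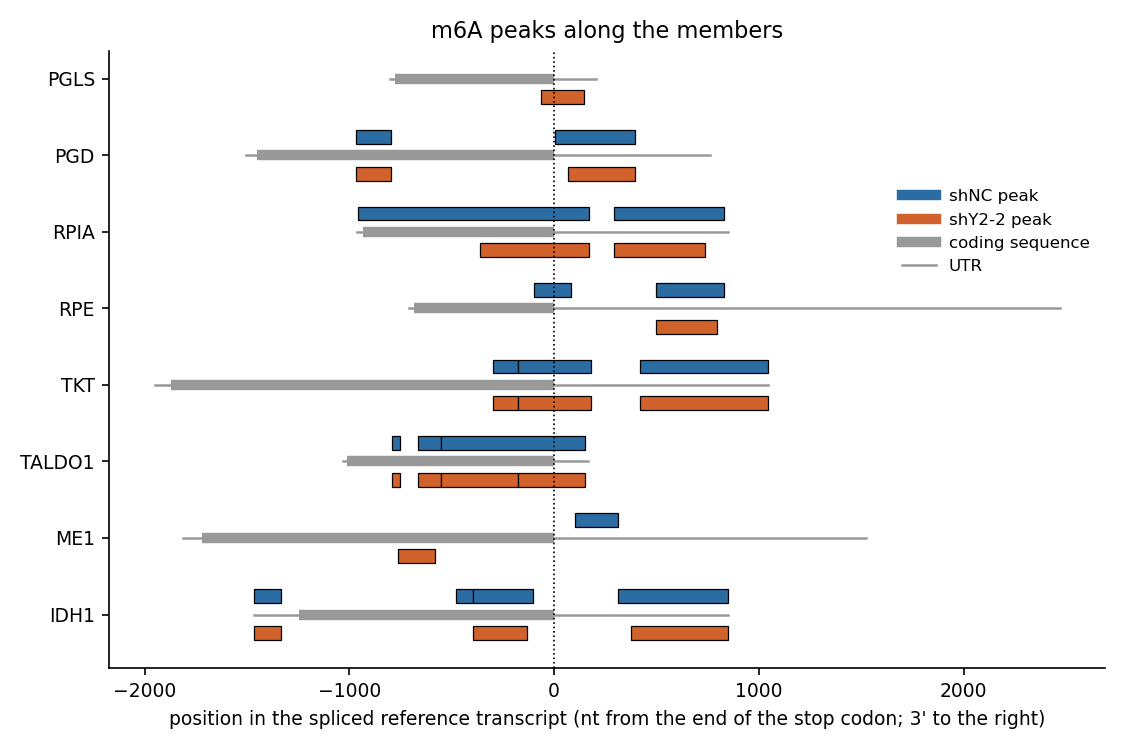
Peaks of the 8 members in the shNC list (blue, above) and the shY2-2 list (orange, below) along the spliced reference transcript, with position in nt from the end of the stop codon. Thick grey bars are coding sequence and thin lines UTRs. The parts of peaks outside the reference exons are not drawn, which leaves out 3 peaks whole, 1 each of PGD and TKT in shNC and 1 of IDH1 in shY2-2. The PGD peak after the stop codon starts 6 nt downstream in shNC and 66 nt downstream in shY2-2, and ME1 has no shared peak.

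PGD had 2 peaks that overlapped between the conditions and 1 peak in the shNC list alone. Its 3′ UTR peak (chr1:10419755-10420144 in shNC and chr1:10419815-10420144 in shY2-2) spanned 390 and 330 nt, with a fold enrichment of 1.69 and 1.65. These values stood at the 26.5 and 23.9 percentile of their lists, beside a log10 FDR of -181 and -103. The peak ended where the authors' gene model ended, 367 nt before the end of the reference transcript. The other shared peak, over coding exons 6 and 7 of 13, had a fold enrichment of 1.16 and 1.15, at the 0.951 and 0.896 percentile. Of its 301 nt, 129 lay outside the reference exons. The peak in the shNC list alone spanned 91 nt outside the reference transcript's exons. Its fold enrichment of 3.89, at the 80.6 percentile, was the highest of the PGD peaks, with a log10 FDR of -15.4. The RNA of PGD thus differed between the conditions, and so did its peaks, through the one called in shNC only. The fold enrichment of its shared peaks was 1.16 and 1.69 in shNC and 1.15 and 1.65 in shY2-2. There was no replicate to give the spread of the RNA levels or of the peaks.

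PGLS, just before PGD in the pathway, had no peak in the shNC list. In shY2-2 it had 1 peak of 211 nt across the stop codon (chr19:17521018-17521228), with a fold enrichment of 1.5 and a log10 FDR of -2.69. PGLS was also among the members with the lowest FPKM, and how many reads lie behind a peak, or behind its absence, is unknown.

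TKT had the member peak with the lowest p-value in each list. A peak of 540 nt across its stop codon (chr3:53225577-53226116) had the same borders in both lists, with a fold enrichment of 4.68 in shNC and 4.11 in shY2-2 and a log10 p of -627 and -742. This peak held 0 copies of GGAC, so no GGAC window could be shown for it. Of its 540 nt, 185 lay outside the reference exons. A peak upstream of it, over coding exon 13 of 14 and sequence outside the reference exons, was 361 nt at a fold enrichment of 4.23 in shNC. In shY2-2 it was 751 nt at 10.4, the highest fold enrichment of any member peak and at the 96.9 percentile of its list. Since the longer peak added sequence outside the reference exons (628 of its 751 nt), these values cover different windows. A further 3′ UTR peak of 631 nt had 2.64 and 2.81. The peak found in shNC alone was short (91 nt, 4.2) and weakly supported, with a log10 FDR of -0.565.

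TALDO1 had 3 peaks in shNC and 4 in shY2-2, because a long shNC peak of 1042 nt (chr11:760946-764994, fold enrichment 2.03) stood against a pair in shY2-2. The pair had 656 nt at 3.18 and 387 nt at 2.26, and the second of them reached the stop codon and the 3′ UTR. The other peaks of TALDO1 had the same borders in both lists, with 1.59 and 1.57 for a peak of 269 nt and 1.22 and 1.28 for one of 60 nt. Sequence outside the reference exons made up 340 of the 1042 nt and 158 of the 269 nt. All 4 shY2-2 peaks overlapped a shNC peak, and the sequence covered by peaks was 1371 nt in shNC and 1372 nt in shY2-2.

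RPIA was the member whose peaks differed most in extent. In shNC 1 peak covered parts of all 9 exons (1133 nt, fold enrichment 5.93, the 88.0 percentile), and in shY2-2 the overlapping peak covered exons 6 to 9 (537 nt, 2.96). Its 3′ UTR peak had 537 nt at 3.32 in shNC and 448 nt at 1.61 in shY2-2. Both peaks of RPIA thus had a lower fold enrichment in the condition with the higher RNA level, over windows that differed in length. Of 7 GGAC sites in the RPIA transcript all 7 lay in shNC peaks and 4 in shY2-2 peaks.

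RPE had a 3′ UTR peak in both lists, with 329 nt at a fold enrichment of 1.36 in shNC and 299 nt at 1.44 in shY2-2. A peak of 180 nt across its stop codon appeared in shNC only, at 1.21 and with a log10 FDR of -0.592, which is above an FDR of 0.05. RPE is thus a member with weak peaks in both conditions. The last exons of RPE meet KANSL1L on the opposite strand, and whether peaks were called by strand is not given in the sources used here.

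ME1 was the member whose peaks did not overlap. In shNC its peak lay in the 3′ UTR, 103 to 312 nt after the stop codon (210 nt, fold enrichment 1.43, log10 FDR -2.72). In shY2-2 its peak lay over coding exons 9 to 11 (180 nt, 1.24, log10 FDR -1.14). Both were weak beside the medians of their lists.

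IDH1 had 4 peaks in each list, of which 3 overlapped. Its 3′ UTR peak had a fold enrichment of 2.35 over 539 nt in shNC and 2.27 over 479 nt in shY2-2. The peak over coding exons 8 and 9 had 2.16 and 1.46, and a peak at the 5′ end had 7.12 over 240 nt in shNC and 2.39 over 360 nt in shY2-2. In each list, 188 nt of the peak over exons 8 and 9 lay outside the reference exons. The 3′ UTR peak was thus closest in fold enrichment between conditions. The peaks without overlap were 1 of 120 nt in shNC (1.37) and 1 of 298 nt in shY2-2 (4.63, log10 FDR -0.683). IDH1 overlaps IDH1-AS1, and PGLS overlaps PGLS-DT, on the opposite strand.

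**Figure D5:**
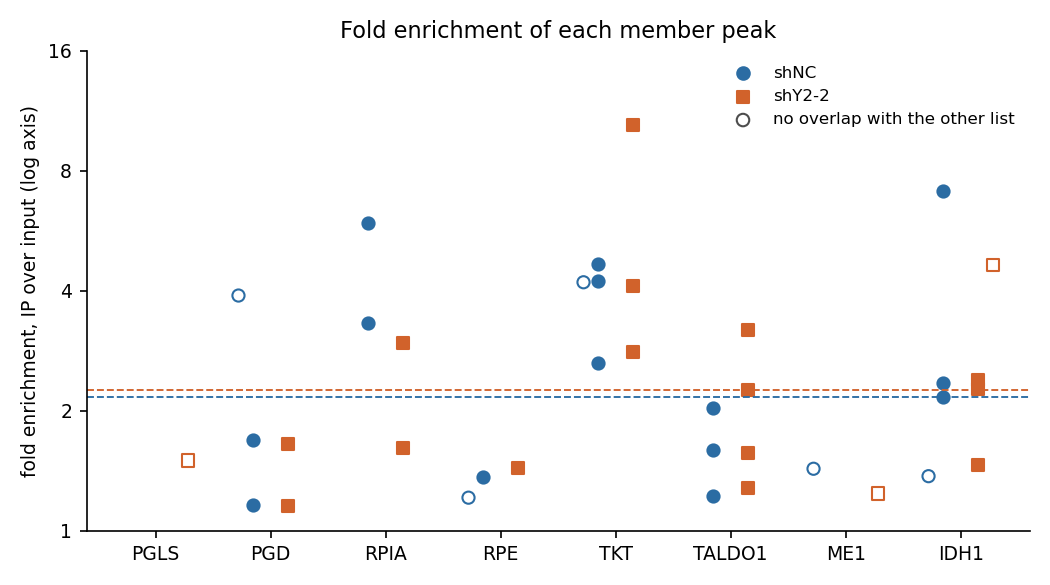
Fold enrichment (log axis) of each member peak in shNC (circles) and shY2-2 (squares), with open symbols for peaks without overlap in the other list and dashed lines at the list medians of 2.17 (shNC) and 2.26 (shY2-2). All 7 TKT peaks lie above both medians, while the shared PGD peaks lie below them at 1.15 to 1.69.

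The members' transcripts held from 7 to 22 copies of GGAC, and the share that lay in peaks varied. TALDO1 had 6 of 7 within peaks of both lists, and TKT had 6 of 22. PGD had 15 copies, of which 3 lay in peaks of both lists and 1 in the shNC peak alone. RPIA and IDH1 each had 4 of 7 in peaks of both lists, and RPE had 1 of 7. ME1 had 2 of 8, 1 in each list, and PGLS had 3 of 9, in shY2-2 only. Per kilobase of peak sequence, which includes parts outside the reference exons, the members had 5.17 GGAC in shNC and 5.71 in shY2-2. All peaks had 4.10 and 3.95. Of the 41 copies in member peaks of shY2-2, 10 lay in the TKT peak of 751 nt, of which 628 nt were outside the reference exons. How other forms of the motif compared with all peaks depended on the measure. GGACT was found at 1.33 per kilobase in shNC and 1.11 in shY2-2, where all peaks had 1.16 and 1.13. As a share, 8 of 19 member peaks in shNC and 8 of 18 in shY2-2 held GGACT, where 28.7% and 29.1% of all peaks did. The wider form was AGAC or GGAC followed by A, C or T. It was in 78.9% of member peaks in shNC and 83.3% in shY2-2, where 78.1% and 77.9% of all peaks held it. Per kilobase it was found at 7.82 in shNC and 7.51 in shY2-2, where all peaks had 7.03 and 6.83. Among peaks of 200 to 600 nt, which holds length more nearly equal, 9 of 11 member peaks in shNC and 11 of 13 in shY2-2 had GGAC, where 68.6% and 68.4% of all such peaks did. In the same length class GGACT was in 4 of 11 and 7 of 13 member peaks, where 31.2% and 31.6% of all such peaks held it. The wider form was in 9 of 11 and 11 of 13 of them, where 87.0% and 86.8% of all such peaks held it.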

How the data were processed

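RNA-seq and m6A-seq were performed on A549 cells carrying the control vector (shNC) or the shRNA that targets YTHDF2 (shY2-2), with 1 input and 1 IP library each. Libraries were made by the dUTP method, which keeps strand. Per the labels and methods, the authors used fastp, aligned with HISAT2 to GRCh38, and computed the deposited FPKM per gene in StringTie from input reads. They called peaks with exomePeak on IP against input of each condition, annotated them with ChIPseeker and searched motifs with HOMER. Versions and the annotation release are not given in the sources used here. Each deposited peak has a p-value (at most 0.049), deposited log10 scores of its p and FDR, and a deposited fold enrichment, the linear ratio of IP over input.

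FPKM keeps no counts, so the depth behind a value is unknown, no interval or floor can be given, and no count test was run. Samples were grouped by the labels, and 0 FPKM columns had no sample. Ratios used a pseudocount of 1, which understates changes of low genes, and a minimum FPKM of 1 in at least 1 library. The log2 ratios were not centred, since over the 11153 genes that reached an FPKM of 1 in both input libraries their median was 0.01. Distinct peaks were compared by at least 1 bp of shared exonic sequence on the same strand. Positions and GGAC were read from the canonical transcripts of GENCODE release 44 and the GRCh38 reference.

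The members and gene lists were chosen with earlier results of these data known. Named are YTHDF2, the 8 members and, of each other list, the genes past 1.5-fold or, where none was, the highest and the lowest. The epithelial markers KRT7 and KRT8, and H6PD, IDH2, NNT, TPI1, NFE2L2, SREBF1, BACH1, TIGAR and ACTA2 were named after their values were seen. TKTL1, TKTL2, PRPS1L1 and SFTPA1 were not analysed here, values of some other listed genes are not reported here, nor was the authors' own comparison of conditions. In a test on simulated data with 12268 genes, 176 of 200 genes changed by 4-fold were called, including all 95 with a mean FPKM of at least 5, and 0 unchanged genes were called. The simulated noise was narrower than the spread of the real ratios, whose middle 95% ran from -0.96 to 0.74. The test therefore checks the calculation and gives no rate of false calls for these libraries. Peak overlaps were right in 300 of 300 cases. Alternatives covered the pseudocount, the filter, centring, the threshold, peak strength, overlap, location and motif. Computations used Python 3.11.15, NumPy 2.4.6, pandas 2.3.3 and matplotlib 3.10.9.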

Additional observations from a re-analysis of the deposited data

How the results depend on the processing

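Of 161 values recomputed under alternatives, 137 kept their direction and their side of the threshold or moved little. Some of these could not differ, since all members passed every FPKM filter and so kept their ratios. A count was taken as the same if it changed by up to 1.5-fold, so this tally does not measure robustness. Of the alternatives, 22 values came from settings chosen after seeing the data, the rescaling of each library to the same FPKM sum and the median of the members without PGD. The log2 ratio of PGD stayed between -0.92 and -0.86 under every setting tried for it. No paired analysis was possible because each condition has 1 library of each kind, and no library can be left out for the same reason. The depth behind FPKM and peaks is unknown.

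At a threshold of 1.5-fold, 1 member was lower, and 5 genes of the other lists were higher and 3 lower. Beside the 2 higher and 1 lower genes of those lists past 2-fold, there were 4 higher with a pseudocount of 0.1, 4 with 0.01 and 4 after rescaling, while an FPKM of at least 5 left 1 higher and 0 lower. Without a filter on FPKM, the median log2 ratio of the NADP supply list was -0.043 in place of -0.20, with more low genes in it. Rescaling moved IDH1 from 0.05 to -0.018, the oxidative branch median from 0.030 to -0.026 and the ribose phosphate list from 0.012 to -0.053. An FDR of at most 0.05 left 17 member peaks in shNC and 16 in shY2-2, and 6 members with a peak in both lists. An FDR of at most 0.001 left 13 and 12 peaks, and 5 members. A fold enrichment of at least 2 left 11 member peaks in shNC and 9 in shY2-2, of which 7 and 8 overlapped the other list, and 4 members with a peak in both lists. At least 4 left 5 and 3 peaks, of which 2 and 2 overlapped, and 2 members. With GGACT in place of GGAC, 8 member peaks in shNC and 8 in shY2-2 held the motif. The cause was not tested for the values whose setting does not itself show it.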
